A study of Mus musculus with 6 samples.

Results

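The 10 genes described here encode heat shock proteins, their relatives and their main regulator: the HSP70 genes Hspa1a, Hspa1b, Hspa8 and Hspa5, the HSP90 genes Hsp90aa1 and Hsp90ab1, the HSP110 gene Hsph1, the J-domain gene Dnajb1, the chaperonin gene Hspd1, and the transcription factor gene Hsf1. They were taken by symbol from a count table of 37991 gene rows, where all 10 were found. The set was selected on the counts of Hspa1b, which were already known to follow the sample labels, and the other 9 were added by family. The values of Hspa1b by label, and those of its near-identical copy Hspa1a, are therefore given as a description, without a test.

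Transcripts were counted in 6 libraries of regulatory T cells (Treg), CD4 T cells that express Foxp3 and hold immune responses in check. The cells were YFP-positive Treg sorted by flow cytometry from spleens of mice, after CD4 cells had been enriched on a column. By label 3 libraries are KAP1 deficient and 3 are KAP1 sufficient and wild type. KAP1 is the protein of the gene Trim28, and KRAB zinc finger proteins recruit it to silence the DNA they bind. The labels give the strain as C57BL/6 for the sufficient group and deficient replicate 1, C57BL/7 for deficient replicate 2 and C57BL/8 for deficient replicate 3, and give no age, treatment, allele or Cre driver. Nor do they state that each library is a different animal: the p-values reflect the spread among these libraries only, and that spread may be technical.

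Chaperones bind unfolded or newly made proteins and help them fold, and many are made in larger amounts when proteins are damaged. HSP70 proteins work with J-domain partners, which deliver clients, and with nucleotide exchange factors such as HSP110, which release them; HSP90 then matures signalling proteins and receptors. HSF1, the product of Hsf1, binds repeats of the letters GAA and TTC before heat shock genes and switches them on under heat or other stress. In resting cells Hspa8, Hsp90ab1 and Hspa5 are made at all times, whereas Hspa1a and Hspa1b are kept low until stress.

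The level of Trim28 checks the labels, and it went against them in 2 libraries. Trim28 stood at 23.0, 18.6 and 231 CPM (counts scaled to equal library totals) in the libraries labelled deficient replicates 1, 2 and 3, and 244, 244 and 21.2 CPM in those labelled sufficient replicates 1, 2 and 3. The libraries labelled deficient replicate 3 and sufficient replicate 3 thus stand with the opposite group, and every direction given for all 6 libraries rests on labels that Trim28 contradicts in these 2. Values are therefore given by label, in the 4 libraries without these 2, and by Trim28 level. Libraries held 9954344 to 10994745 counts. The Treg list was high throughout, at 4383 to 4506 CPM summed over 7 genes in the deficient group and 4283 to 4549 CPM in the sufficient group, with no Treg marker at 0. Of the other cell types' lists, that of B cells stood at 544 to 606 against 581 to 697 CPM, that of stromal cells at 209 to 228 against 199 to 248 CPM, that of CD8 T cells at 22.8 to 35.4 against 25.2 to 34.2 CPM, and that of dendritic cells at 29.7 to 30.8 against 32.0 to 39.1 CPM, with Itgax and Siglech at 0. Lists for natural killer (Ncr1 at 0) and myeloid cells (Cd14 at 0) summed to at most 11.9 CPM in either group. The part of other cells in the results below was not tested.

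The promoter sequences of the stress-induced pair Hspa1a and Hspa1b are shown because these genes stood apart by label. For Hspa1a this rests on very low counts, with 4 in deficient replicate 1 against 3 in sufficient replicate 2. The HSF1 letters of Hsph1 and Hspd1 are shown because a window of each holds a match. Their groups overlapped by label, as did those of Hspa5 and Dnajb1, whose windows hold no such match. For Hspa1b and Hspa1a the lines give the 250 bases before the start of transcription, and for Hsph1 and Hspd1 only the match with 5 bases on each side. All are from RefSeq on GRCm38.p6, 5′ to 3′ on the gene's strand, and capitals mark every match to GAANNTTC or TTCNNGAA, where N is any base. Both motifs read the same on either strand, and matches may overlap.
Hspa1b (chr17:34959239-34959488, minus strand): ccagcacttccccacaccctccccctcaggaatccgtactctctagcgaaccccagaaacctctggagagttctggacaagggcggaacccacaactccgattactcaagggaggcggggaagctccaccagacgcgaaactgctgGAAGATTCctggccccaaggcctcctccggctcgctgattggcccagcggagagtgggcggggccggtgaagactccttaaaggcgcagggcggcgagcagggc
Hspa1a (chr17:34972157-34972406, minus strand): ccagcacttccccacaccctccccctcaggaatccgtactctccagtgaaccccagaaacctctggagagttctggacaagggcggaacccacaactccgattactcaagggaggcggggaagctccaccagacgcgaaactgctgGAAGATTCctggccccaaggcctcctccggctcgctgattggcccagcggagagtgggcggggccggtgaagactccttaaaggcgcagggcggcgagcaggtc
Hsph1 (chr5:149636357-149636374, minus strand): aatctTTCTCGAAggctc
Hspd1 (chr1:55088054-55088081, minus strand): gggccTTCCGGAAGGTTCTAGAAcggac
The windows of Hspa1a and Hspa1b are identical at 247 of 250 bases. Counted from 1 at the 5′ end, with the Hspa1a base first, the differences are C44T, T47C and T249G, and none touches the single match, which begins 104 bases before the start in both. The window of Hsph1 holds 1 match, beginning 33 bases before the start. The window before the second start of Hspd1 holds 3 that run into each other, beginning 144, 139 and 134 bases before the start, and so contains 2 matches to the 3-unit forms (GAANNTTC followed by NNGAA, or TTCNNGAA followed by NNTTC). Both of these sites lie within a first exon that GENCODE M21 gives to a transcript of the gene that starts further upstream. Among all 32851 windows of the table, 6.69% hold GAANNTTC, 7.17% TTCNNGAA and 0.466% a 3-unit form. Hspa5 has none of these in its window but holds 1 match to the endoplasmic reticulum stress element, searched as CCAAT and CCACG with 9 bases of any kind between them, on both strands, and present in 0.113% of windows. The 2 windows of Dnajb1 hold no match to any of the 4 motifs, a second, overlapping window of Hsph1 holds the same match, the window before the first start of Hspd1 holds 0, and Hspa8, Hsp90aa1, Hsp90ab1 and Hsf1 were not matched in the promoter table. The second Dnajb1 window (83608298 to 83608547) lies within the gene as GENCODE M21 gives it. The Hspa5 window (34771840 to 34772089) ends past the GENCODE M21 start of its gene, so not all windows lie upstream of the gene. A match is a description of the letters and does not show binding.

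Hspa1b, a stress-induced HSP70 gene (ENSMUSG00000090877, chromosome 17, 34956436 to 34959238, mm10), stood higher in every library labelled deficient than in any labelled sufficient. It had 59, 59 and 139 counts in deficient replicates 1, 2 and 3, against 11, 12 and 5 counts in sufficient replicates 1, 2 and 3. Scaled by depth this was 5.85, 5.93 and 12.6 CPM in the libraries labelled deficient and 1.09, 1.18 and 0.485 CPM in those labelled sufficient. The groups do not overlap, and the highest value belongs to the library labelled deficient replicate 3 and the lowest to that labelled sufficient replicate 3, the 2 in which Trim28 goes against the label. The group means were 8.14 ± 3.90 CPM and 0.918 ± 0.377 CPM (SD, n = 3 each), deficient first, a fitted log2 fold change of 3.13 ± 0.43 (SE). These are the values by which the gene was chosen. In bulk RNA, more cells that make a transcript and more RNA per cell cannot be told apart.

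Since every deficient library was above every sufficient one, any subset of the libraries keeps that direction for Hspa1b, and the ratios below describe its size only. Where Trim28 is low, deficient replicates 1 and 2 together held 118 counts against 5 in sufficient replicate 3, a CPM ratio of 12.1, whose 95% counting interval, exact binomial, runs between 5.06 and 38.1, with a single library on the sufficient side. Where Trim28 is high, deficient replicate 3 held 139 counts against 23 in sufficient replicates 1 and 2 together, a ratio of 11.1 (7.14 to 18.2). In the 4 libraries without the 2 doubted ones the ratio was 5.19 (3.30 to 8.51). Sorted by Trim28 level alone, the libraries overlap for Hspa1b, with 5.85, 5.93 and 0.485 CPM where Trim28 is low and 12.6, 1.09 and 1.18 CPM where it is high. These intervals cover counting error only and say nothing of the spread between animals.

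Hspa1a, the neighbouring copy of Hspa1b (ENSMUSG00000091971, chromosome 17, 34969190 to 34972156), had 4, 10 and 14 counts in the libraries labelled deficient and 1, 3 and 0 counts in those labelled sufficient. Every deficient library is above every sufficient one here too, at counts so low that the gene did not pass the filter on low values and was not fitted. The count of 0 allows up to 0.291 CPM in that library, taken as 3 counts. Summed by label there were 28 counts against 4, a CPM ratio of 6.90 (95% counting interval 2.41 to 27.1). The transcripts of both genes align over 2200 bases at 99.1% identity, so reads from that stretch cannot be assigned to one of them with certainty. Hspa1a made up 9.82% of the counts of the pair in the deficient group (95% Clopper-Pearson interval 6.63% to 13.9%) and 12.5% in the sufficient group (3.51% to 29.0%). An antisense gene, Gm20481, shares 19.0% of the exon bases of Hspa1a and had 0 counts in all 6 libraries, and since the strand setting is not given its reads could not be told from those of Hspa1a. The pair together stood at 6.25, 6.93 and 13.9 CPM in the libraries labelled deficient and 1.19, 1.47 and 0.485 CPM in those labelled sufficient, so the separation by label does not depend on how reads were split between them.

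**Figure D1:**
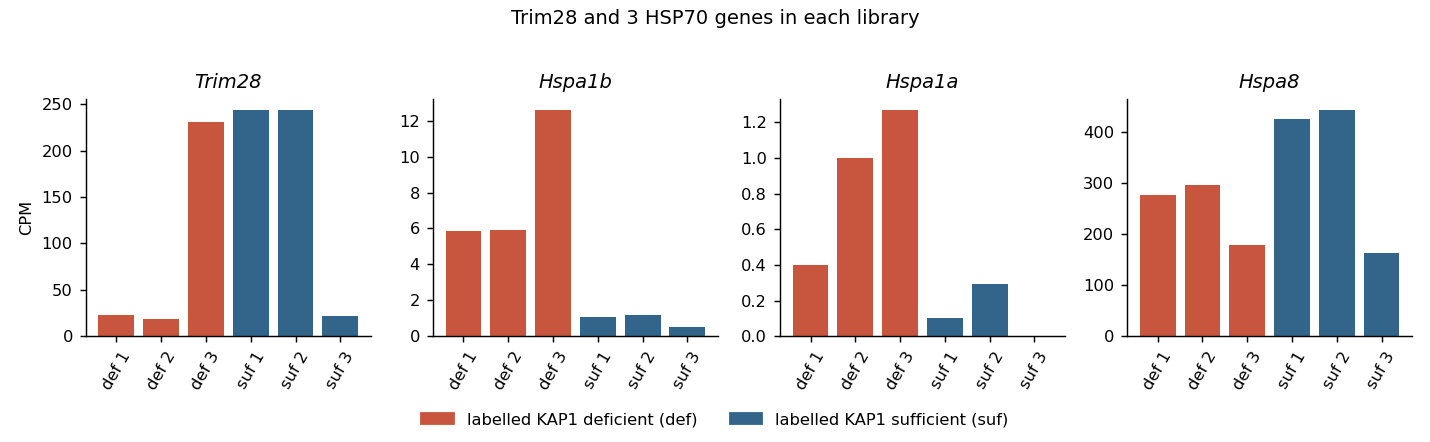
Level of Trim28, Hspa1b, Hspa1a and Hspa8 in CPM (y axes, each from 0) in the 3 libraries labelled KAP1 deficient (def) and the 3 labelled KAP1 sufficient (suf), 1 bar per library. Trim28 is low in def 1, def 2 and suf 3, Hspa1b and Hspa1a are higher in all 3 def libraries than in any suf library, and Hspa8 is lowest in def 3 and suf 3.

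The 5 tested genes whose pattern over the 6 libraries lay nearest to that of Hspa1b were Gm17024, Gm15446, Gm22571, Rnf128 and Gm12267. Nearness was the root-mean-square difference of log2 CPM around each gene's mean, and it ran from 0.96 for Gm17024 to 1.09 for Gm12267. Gm15446, a protein-coding gene model, was counted 77, 82 and 70 times in the deficient group and 1, 2 and 3 times in the sufficient group. Rnf128, an E3 ubiquitin ligase gene known for its part in T cell anergy, had 22, 18 and 22 counts in the deficient group and 14, 15 and 4 counts in the sufficient group. Gm17024 had 24, 16 and 17 counts in the deficient group and 7, 3 and 6 in the sufficient group. The small nucleolar RNA gene Gm22571 had 19, 20 and 25 counts in the deficient group and 7, 7 and 10 in the sufficient group, and the pseudogene Gm12267 had 21, 24 and 30 and 12, 7 and 14, deficient first. None of the 5 belongs to the chaperone lists, but beside the members these hold only 118 of the 12158 tested genes, so this says little. Of 12158 tested genes 13.0% did not overlap by label in either direction, 6.63% with the deficient group higher and 6.37% with it lower. Hspa1b was the 1 of 9 tested members that did so, and this share is not a result about the members, since Hspa1b was chosen for it.

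Hspa8 encodes the constitutive HSP70 protein HSC70 (ENSMUSG00000015656, chromosome 9, 40800984 to 40810087). It varied more between libraries than any other tested member but Hspa1b, and followed neither the labels nor Trim28. It stood at 278, 296 and 178 CPM in deficient replicates 1, 2 and 3 and at 426, 444 and 164 CPM in sufficient replicates 1, 2 and 3. The libraries fall into 3 pairs: sufficient replicates 1 and 2 are highest, deficient replicates 1 and 2 lie between, and both libraries numbered replicate 3 are lowest. By label its fitted log2 fold change was -0.46 with an SE of 0.48, and the edgeR adjusted p was 0.815. In the 4 libraries Hspa8 fell by 0.59 ± 0.05 (log2, SE), with an edgeR adjusted p of 1.89e-06, and this call held under every alternative run on those 4 libraries. Where both doubted libraries are set against each other, deficient replicate 3 over sufficient replicate 3, the CPM ratio was 1.08 (95% counting interval 1.02 to 1.16). The spread, the order of the pairs and the call all rest on deposited counts with a scaled mean of 3056. The authors' deposited mean level was 27640.5, and whether the pattern holds for that fuller signal was not tested.

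The deposited counts of Hspa8 hold a small part of what the authors' deposited table holds. The mean count, scaled to the mean library total, was 3056, whereas the mean level in the authors' deposited table was 27640.5, which is 9.04 times as high. Over 8958 genes named in both tables with both means at least 50, the median of that ratio was 0.984 and 2.47% of genes were above 3. Hsp90aa1 had a ratio of 6.88 and Hspd1 of 3.43, and the other 7 members stood between 0.960 and 1.11. Near-copies, taken as alignments of at least 300 bases at 90% identity or more to another gene in the GENCODE M21 transcripts, were found for Hspa8 in 13 genes (12 of them pseudogenes), for Hspd1 in 5 and for Hsp90aa1 in 4. Hsp90ab1, Hspa1a and Hspa1b had 2 each, and Hspa5, Hsph1, Dnajb1 and Hsf1 had none. For Hspa1a and Hspa1b these include Gm20481, the antisense gene that overlaps Hspa1a. Most of the 13 near-copies of Hspa8 have no row among the deposited counts. Such copies covered 87.6% of the Hspa8 transcript, 71.1% of that of Hspd1, 68.7% of that of Hsp90aa1 and 86.3% of that of Hsp90ab1. The sources used here do not give how reads that match more than 1 gene were counted, and its part in these ratios was not tested. The authors' deposited table also gives fold changes, signed so that a positive value is higher in sufficient cells, and Trim28 stands at 3.11 there (log2); that direction is read from Trim28, since the grouping behind the table is not stated. In the deposited counts Trim28 was at -0.90 ± 1.46 by label and -3.54 ± 0.08 in the 4 libraries (log2, SE, deficient over sufficient). The authors' size lies nearer to the second, so their values are not set against the fold changes by label. That nearness does not show that 2 libraries were left out. Sorted by Trim28 level, all 6 libraries also part widely for Trim28, at 18.6 to 23.0 against 231 to 244 CPM. A fold change for that sorting was not fitted, so it could not be set beside the authors' size. The authors' mean levels of Hspa1b and Hspa1a were 45.33 and 5.224, beside scaled mean counts over all 6 libraries of 46.51 and 5.252. How each library was grouped for the authors' values is not stated. Hspa8 is listed in the authors' deposited table at a log2 value of 0.17 ± 0.06 (SE), with an adjusted p of 0.0362. The authors' deposited table lists Hspa1b at 0.01 ± 0.05 and Hspa1a at 0.02 ± 0.06 (log2, SE). Neither has an adjusted p there, and Hspa1b has no unadjusted p. How these log2 values were fitted and which libraries were set against each other is not stated. They therefore do not show that the labelled groups are alike for these genes. The other 7 members range there from -0.05 for Hsph1 to 0.15 for Hspd1 (log2), with no adjusted p below 0.152 in the authors' deposited table.

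**Figure D2:**
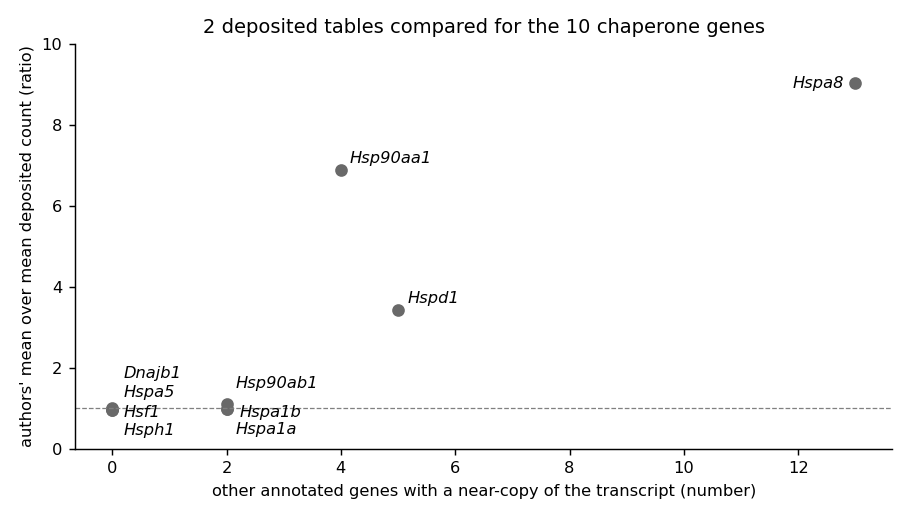
Mean level in the authors' deposited table divided by the mean deposited count (y axis, ratio, dashed line at 1) against the number of other annotated genes with a near-copy of the transcript (x axis), 1 point for each of the 10 members. Hspa8, Hsp90aa1 and Hspd1 stand at 9.04, 6.88 and 3.43, and the other 7 lie near 1. Near-copies are included whether or not they have a row among the deposited counts.

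Both cytosolic HSP90 genes had slightly negative fold changes that did not pass the test. Hsp90ab1, the constitutive cytosolic HSP90 gene (ENSMUSG00000023944, chromosome 17, 45567775 to 45573271), had 2121, 2009.9 and 2018 CPM in the libraries labelled deficient and 2259, 2235 and 2021 CPM in those labelled sufficient. The groups overlap by the lowest sufficient library, replicate 3. The fitted change (log2, SE) was -0.09 ± 0.06 by label, with an edgeR adjusted p of 0.715, and -0.12 ± 0.05 in the 4 libraries, with an adjusted p of 0.147. Hsp90aa1, the inducible HSP90 gene (ENSMUSG00000021270, chromosome 12, 110690605 to 110702728), stood at 76.7, 81.9 and 77.9 CPM in the deficient group and 88.9, 92.3 and 78.8 CPM in the sufficient group. Here too the groups overlap by sufficient replicate 3 alone. The fitted change was -0.14 ± 0.07 by label (log2, edgeR adjusted p = 0.654) and -0.19 ± 0.07 in the 4 libraries (adjusted p = 0.0682). With upper-quartile scaling the 4-library value was -0.22 and passed the test (adjusted p = 0.0335), and with no filter on low counts it passed at -0.19 (adjusted p = 0.0499). A transcribed pseudogene, Gm12346, aligns to Hsp90aa1 at up to 99.47% identity, so reads of the gene and this copy cannot be assigned with certainty. Gm12346 had 298, 318 and 308 counts in the deficient group and 253, 243 and 262 counts in the sufficient group. All 3 deficient libraries thus lie above the sufficient ones, as they did without overlap for 6.63% of all tested genes. This copy was added once its values had been seen.

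Hspd1 encodes HSP60, the chaperonin of mitochondria (ENSMUSG00000025980, chromosome 1, 55077835 to 55088243). It stood at 64.0, 64.2 and 67.9 CPM in the libraries labelled deficient and at 71.3, 74.9 and 59.6 CPM in those labelled sufficient, which overlap. Sorted by Trim28 level it was at 64.0, 64.2 and 59.6 CPM where Trim28 is low and at 67.9, 71.3 and 74.9 CPM where Trim28 is high, without overlap. It was the only tested member of 9 to separate in this way, joined by Hsf1 with upper-quartile scaling. Of the 12158 tested genes 26.2% did so in either direction, 13.0% with lower and 13.2% with higher values where Trim28 is low. The fitted change (log2, SE) was -0.07 ± 0.08 by label, at an edgeR adjusted p of 0.828, and -0.18 ± 0.07 in the 4 libraries, at 0.0854. With upper-quartile scaling the 4-library value was -0.22 and passed the test (edgeR adjusted p = 0.0443). A processed pseudogene, Hspd1-ps3, aligns to Hspd1 over 1722 bases at up to 98.95% identity. It held 558, 533 and 686 counts in the libraries labelled deficient and 724, 869 and 576 counts in those labelled sufficient. These are about as many as the 614 to 763 counts of Hspd1 itself. Sorted by Trim28 level, Hspd1-ps3 had 558, 533 and 576 counts where Trim28 is low and 686, 724 and 869 where it is high. The separation of Hspd1 by Trim28 level is thus shared by this copy. This copy was added once its values had been seen. Reads of Hspd1 and its copy cannot be assigned with certainty, and the gene of its co-chaperonin, Hspe1, overlaps 4.24% of the exon bases of Hspd1 on the other strand.

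The co-factors of HSP70 and the regulator Hsf1 overlapped between the groups, and none passed the test. Dnajb1, the J-domain partner of HSP70 that HSF1 switches on (ENSMUSG00000005483, chromosome 8, 83608193 to 83612653), had 111, 108 and 101 CPM in the libraries labelled deficient and 123, 109 and 113 CPM in those labelled sufficient. Its groups overlap, and the fitted change (log2, SE) was -0.11 ± 0.07 by label, with an edgeR adjusted p of 0.680, and -0.08 ± 0.07 in the 4 libraries, with 0.464. Hsph1, the HSP110 exchange factor and also a target of HSF1 (ENSMUSG00000029657, chromosome 5, 149614287 to 149636376), had 237, 271 and 203 CPM in the deficient group and 249.9, 259 and 226 CPM in the sufficient group. Like Hspa8 it was lowest in both libraries numbered replicate 3, and its fitted change was -0.05 ± 0.11 by label (edgeR adjusted p = 0.909) and 0.00 ± 0.06 in the 4 libraries (adjusted p = 0.986). Hsf1 itself (ENSMUSG00000022556, chromosome 15, 76477422 to 76501913) had 89.1, 88.3 and 103 CPM in the deficient group and 101, 97.0 and 98.4 CPM in the sufficient group. The groups overlap, with deficient replicate 3 highest. The fitted change of Hsf1 was -0.08 ± 0.07 by label (edgeR adjusted p = 0.755) and -0.15 ± 0.06 in the 4 libraries (adjusted p = 0.109).

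Hspa5, which encodes BiP, the HSP70 protein of the endoplasmic reticulum (ENSMUSG00000026864, chromosome 2, 34771970 to 34777547), had 430.0, 446 and 445 CPM in the libraries labelled deficient. It had 439, 502 and 436 CPM in those labelled sufficient, and the groups overlap, with sufficient replicate 2 highest. The fitted change (log2, SE) was -0.06 ± 0.06 by label, with an edgeR adjusted p of 0.798, and -0.10 ± 0.06 in the 4 libraries, with 0.295. Without sufficient replicate 1 the 4-library value was -0.19 and passed the test (edgeR adjusted p = 0.0376), and without sufficient replicate 2 it was -0.01.

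**Figure D3:**
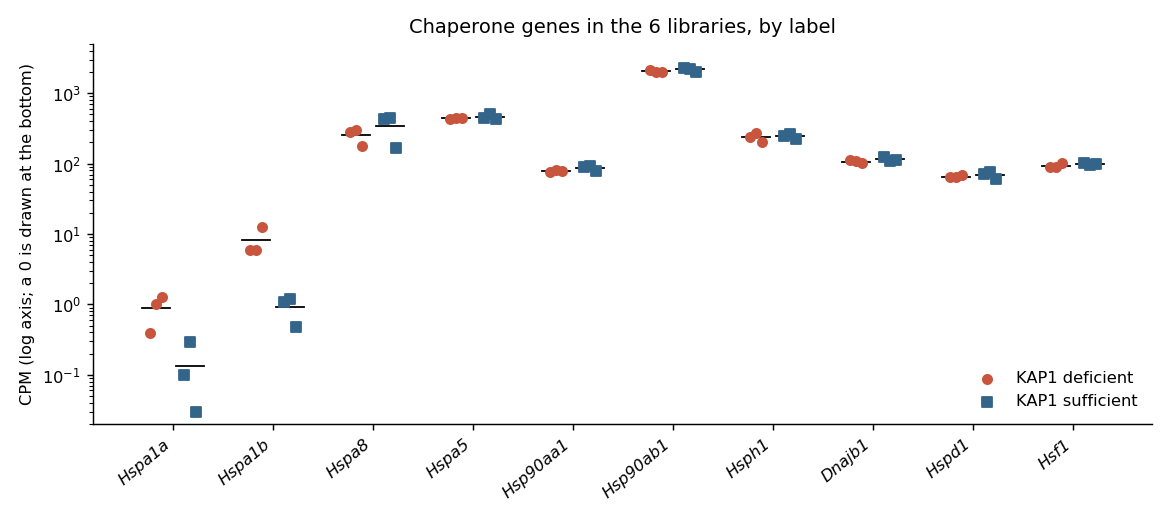
Level of the 10 members in CPM (log y axis, with the 0 of Hspa1a drawn at the bottom) in the libraries labelled KAP1 deficient (circles, left) and KAP1 sufficient (squares, right), 1 point per library and a line at each mean. Hspa1a and Hspa1b are the members whose groups stand apart, Hspa1a by only 4 counts in deficient replicate 1 against 3 in sufficient replicate 2. Hspa8 is the most spread of the other 8, and the remaining 7 lie close together.

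Per kilobase of annotated exon, the level over the 6 libraries was highest for Hsp90ab1, with a median of 690.4 CPM per kb and a range of 670.2 to 753. Hspa5 followed at 105 (102 to 119) and Hspa8 at 66.7 (38.2 to 103), whose ranges just meet. Next came Dnajb1 at 34.4 (31.5 to 38.4), Hsph1 at 33.5 (27.9 to 37.3), Hspd1 at 25.0 (22.6 to 28.4) and Hsp90aa1 at 20.4 (19.5 to 23.5) CPM per kb, and each of these neighbours overlaps the next in range. Hsf1 stood at 13.8 (12.4 to 14.6), Hspa1b at 1.25 (0.173 to 4.51) and Hspa1a at 0.117 (0 to 0.429) CPM per kb. The places of Hspa8, Hsp90aa1 and Hspd1 in this order rest on deposited counts that lie well under the authors' means. The order also depends on the length used, which joins the exons of all annotated transcripts of a gene. That length was 7099 bases for Hsf1, 7266 for Hsph1 and 4301 for Hspa8. Their longest protein-coding transcripts have 2104, 3802 and 2394 bases, so these genes would stand higher per kilobase of transcript.

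Of the 10 members 9 passed the filter on low values and were tested. By label, edgeR's quasi-likelihood test with Benjamini-Hochberg adjustment over all 12158 tested genes called 0 of the 8 tested members other than Hspa1b, with 0 at an unadjusted p under 0.05. Among all tested genes 0.0165% were called and 7.76% had an unadjusted p under 0.05. DESeq2 and limma-voom also called 0 of these 8, with 0 at an unadjusted p under 0.05. All 8 had a negative log2 fold change by label, as had 6223 of the 12158 tested genes. In the 4 libraries 1 of the 8, Hspa8, was called, which is 12.5%, against 17.4% of 12183 tested genes (9.96% higher and 7.39% lower in deficient cells). A share this close to the background is not a result about the members. The median log2 fold change of the 9 tested members was -0.08 by label and -0.12 in the 4 libraries, beside a median of -0.00 over all tested genes in both. Both comparisons share 4 libraries.

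**Figure D4:**
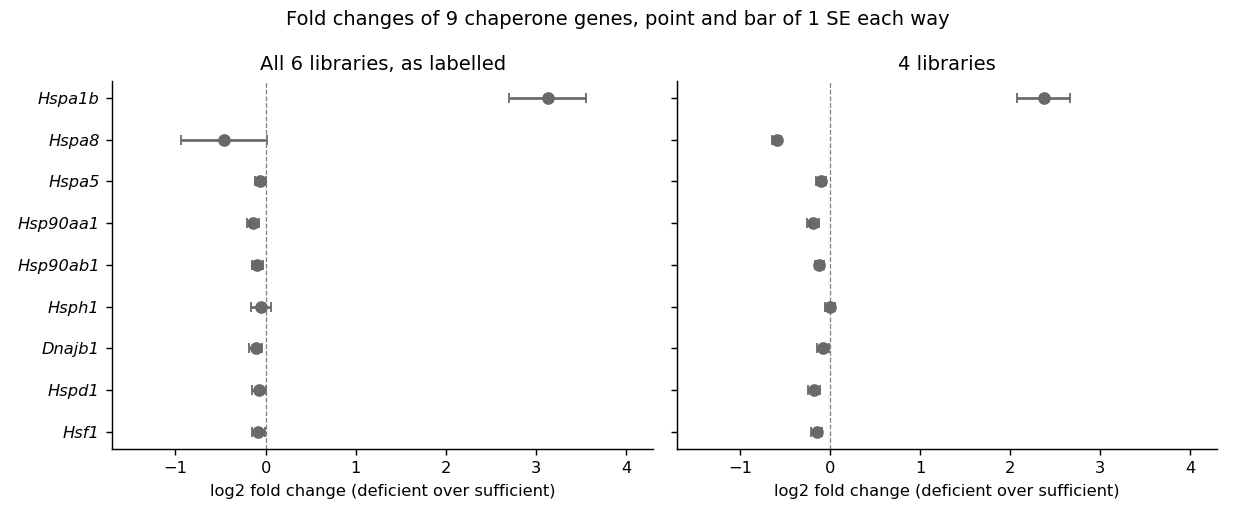
log2 fold change, deficient over sufficient (x axes), of the 9 tested members in all 6 libraries as labelled (left) and in 4 libraries without the 2 in which Trim28 goes against the label (right), with bars of 1 SE each way. Hspa1b stands at 3.13 and 2.37, Hspa8 at -0.46 with a wide bar and -0.59 with a narrow one, and the other 7 lie between -0.14 and -0.05 on the left and between -0.19 and 0.00 on the right.

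Beyond these 10 genes, 138 further genes of the chaperone network were listed by family, of which 118 were tested. By label edgeR called 0 of them, with 9 at an unadjusted p under 0.05, and DESeq2 and limma-voom also called 0. In the 4 libraries 15 of 118 were called (12.7%, against 17.4% of all tested genes), 7 higher and 8 lower in deficient cells, with a median log2 fold change of -0.02. DESeq2 called 3 of 119 there and limma-voom 13 of 118. The called log2 fold changes lay between -0.44 and 0.52. Of the 15 calls, those of Nudc, Vbp1 and Edem1 were the 3 that DESeq2 kept, and Ahsa1, Dnajc14, Ahsa2, Hspa13, Dnajb6, Hsp90b1 and Atf6 each lost theirs without at least 2 of the 4 libraries in turn.

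Among co-chaperones of HSP90, 2 of 18 rose and 3 fell in the 4 libraries, which is 27.8%, against 17.4% of all tested genes. Ptges3, which encodes p23, rose by 0.42 ± 0.09 (log2, SE, edgeR adjusted p = 0.00551), and Ahsa2 by 0.25 ± 0.07 (adjusted p = 0.0268). Nudc fell by 0.41 ± 0.07 (edgeR adjusted p = 0.00145), Stip1, which encodes the HOP protein that links HSP70 to HSP90, by 0.22 ± 0.05, and Ahsa1, an activator of the HSP90 ATPase, by 0.17 ± 0.05. The level of Stip1 was 199, 209 and 173 CPM in deficient replicates 1, 2 and 3 and 239.7, 236 and 186 CPM in sufficient replicates 1, 2 and 3, the same order of library pairs as in Hspa8. Among 12 co-chaperones of HSP70 the smallest adjusted p was that of Bag3, a further target of HSF1, at -0.56 ± 0.19 (log2, edgeR adjusted p = 0.0578). Bag3 passed the test with upper-quartile scaling (adjusted p = 0.0395), with no filter (0.0156), with a replicate block (0.0376) and without deficient replicate 2 (-0.80, 0.0158) or sufficient replicate 1 (-0.69, 0.0416), all by edgeR. It was at -0.34 without deficient replicate 1 and at -0.41 without sufficient replicate 2, where it did not pass.

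Among 42 tested J-domain genes 2 rose and 3 fell in the 4 libraries by edgeR, which is 11.9%, against 17.4% of all tested genes. Dnajc15, a J-domain gene of mitochondria, rose by 0.52 ± 0.10 (log2, SE, edgeR adjusted p = 0.00308) and Dnajb6 by 0.35 ± 0.11. Dnajb5 fell by 0.44 ± 0.11 (edgeR adjusted p = 0.0139), Dnajc8 by 0.27 ± 0.06 and Dnajc14 by 0.17 ± 0.06. Of 15 chaperonin and prefoldin genes only Vbp1, a prefoldin subunit gene, was called (6.67%), higher by 0.44 ± 0.08 (edgeR adjusted p = 0.00185).

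Of the other HSP70 and HSP110 genes 1 of 7 was called in the 4 libraries (14.3%, against 17.4% of all tested genes). This was Hspa13, which rose by 0.35 ± 0.11 (log2, SE, edgeR adjusted p = 0.0384). Of the other HSP90 genes Hsp90b1, which encodes GRP94 of the endoplasmic reticulum, fell by 0.16 ± 0.05 (adjusted p = 0.0354), 1 of 2 tested. Among 18 genes of folding and stress in the endoplasmic reticulum 1 rose and 1 fell, which is 11.1%. Edem1 rose by 0.30 ± 0.05 (edgeR adjusted p = 0.000755) and the stress sensor gene Atf6 fell by 0.36 ± 0.10 (adjusted p = 0.0212). Of the 3 tested heat shock factors and regulators Hsf2 had the smallest adjusted p, at 0.36 ± 0.12 (log2, edgeR adjusted p = 0.0599); with no filter on low counts it passed at 0.0475. Of 9 small heat shock protein genes only Hspb6 passed the filter, at 0.05 ± 0.32 (log2, edgeR adjusted p = 0.943).

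**Figure D5:**
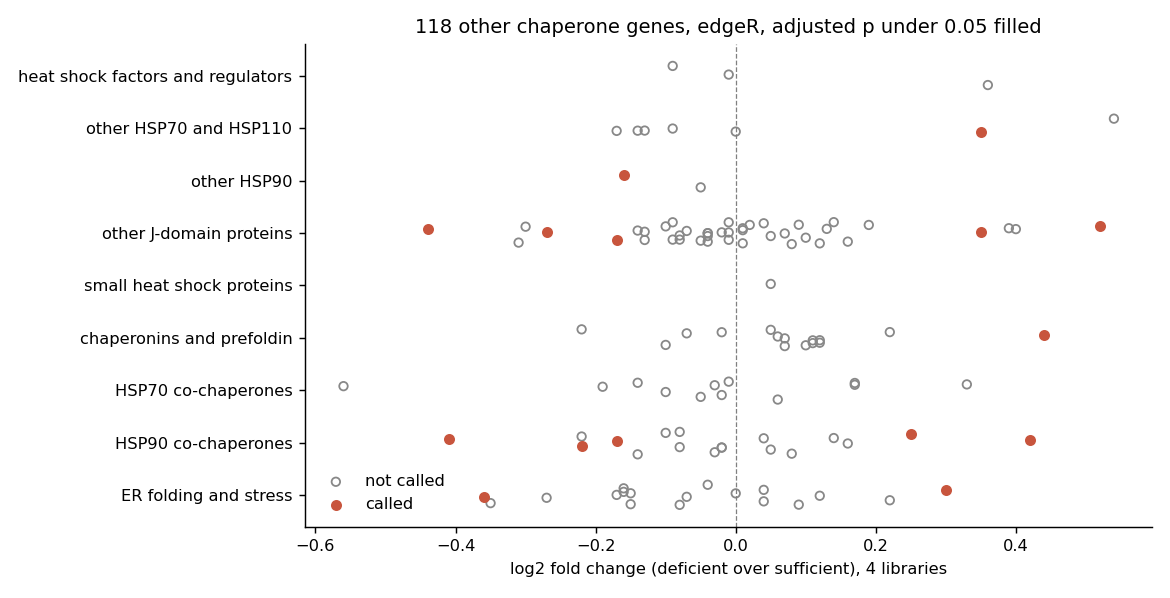
log2 fold change in the 4 libraries, deficient over sufficient (x axis), of 118 further chaperone genes by family (rows), filled where edgeR's adjusted p was under 0.05. The 15 called genes, 7 higher and 8 lower, are spread over 6 families and lie between -0.44 and 0.52.

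Sorted by Trim28 level, 25 of the 118 further chaperone genes did not overlap (21.2%, against 26.2% of all tested genes), 13 higher and 12 lower where Trim28 is low. Of the genes named above Ahsa2, Dnajb6, Dnajc15, Edem1, Hspa13, Ptges3 and Vbp1 were higher there, and Atf6, Bag3, Dnajc8 and Hsp90b1 lower. Dnajc15, for example, had 29.8, 28.4 and 30.2 CPM where Trim28 is low and 20.0, 19.4 and 21.3 CPM where it is high.

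Both libraries numbered replicate 3 stood below the other 4 for 2 of the 9 tested members, Hspa8 and Hsph1, and for 14 of 118 further chaperone genes (11.9%), Stip1, Ahsa1, Cdc37, St13, Stub1 and Dnaja4 among them. Over all 12158 tested genes 6.11% were lowest in both of these libraries. They stood above the other 4 for 0 of 9 members, for 4 of 118 further chaperone genes (3.39%) and for 5.98% of all tested genes. The labels do not say that a replicate number marks a shared day or batch. This pattern, and the genes named for it, were picked out after the values were seen, and it is given without a test.

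Immediate early genes, which respond within minutes to activation and to handling of cells, summed to 2134 to 2208 CPM in the libraries labelled deficient and 2285 to 2489.5 CPM in those labelled sufficient. By label edgeR called 0 of 22 tested, with 6 at an unadjusted p under 0.05 (7.76% of all tested genes had such a p), and DESeq2 and limma-voom also called 0. Of the 22, 2 rose and 8 fell in the 4 libraries by edgeR, which is 45.5%, against 17.4% of all tested genes. Jun rose by 0.41 ± 0.09 (log2, SE, edgeR adjusted p = 0.00409) and Fos by 0.69 ± 0.16 there, while Egr1 fell by 0.75 ± 0.06 and Zfp36 by 0.50 ± 0.05. Mitochondrial transcripts made up 1.34%, 1.33% and 1.61% of counts in deficient replicates 1, 2 and 3 and 1.92%, 2.1% and 1.41% in sufficient replicates 1, 2 and 3. The part of handling or RNA quality in the values of Hspa1b and Hspa8 was not tested.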

How the data were processed

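RNA of 6 libraries was made into sequencing libraries with a TruSeq kit, per the labels' protocols. The authors deposited whole-number counts per Ensembl gene, not normalized. The submitters' processing notes name the mm10 build, DESeq2, HTSeq 0.7.2 and TopHat2 2.1.1 without saying what each did; the annotation release, the strand setting and the handling of reads with several matches are not given there. The authors also deposited a results table with a mean level (a count-like signal), log2 fold changes and their SE, a test score, p-values and adjusted p-values, per the file headers. Gene names matched 32919 of 37991 rows, the rest holding 0.603% of counts, and positions come from GENCODE M21 on the same assembly.

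Counts were tested with edgeR 4.0.16 (R 4.3.3) by the quasi-likelihood test with TMM factors, filterByExpr, robust dispersion and Benjamini-Hochberg adjustment over all tested genes at 0.05. Standard errors derive from the fold change and F. Library totals of 9954344 to 10994745 put 3 counts, taken as the limit of a count of 0, at 0.273 to 0.301 CPM. Intervals and floors cover counting error only. CPM values use library totals, and overlap was judged on TMM-scaled log2 CPM with a prior count of 2. DESeq2 1.42.0 and limma 3.58.1 (voom) were alternatives, beside other scaling, no filter, a replicate block, a non-robust fit, Trim28 level as a covariate, the Hspa1 pair summed and leaving out libraries. Near-copies were found with BLAST 2.17.0.

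The members and lists, and the use of 4 libraries, were chosen with earlier results of these data known. Genes were named by rule: Trim28, the members, up to 4 called genes per list and direction or the one with the smallest adjusted p, and the 5 patterns nearest to Hspa1b. Any other gene is said to be named after its values were seen. Libraries sorted by Trim28 level are not groups of the study and were not tested.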

Additional observations from a re-analysis of the deposited data

How the results depend on the processing

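By label, edgeR called 2 of 12158 genes. This count was 6 of 18640 with DESeq2, 1 with limma-voom, 1 with a non-robust fit, 4 with Trim28 level as a covariate and 2114 without both libraries in which Trim28 goes against the label. Leaving out 1 library at a time gave 1 to 807, the highest without sufficient replicate 3. Of the 8 tested members other than Hspa1b 0 were called by label under every alternative except without both doubted libraries, where 1, Hspa8, was. Of the other chaperone genes 0 were called by label, 15 without both doubted libraries and 0 to 4 without 1 library. In the 4 libraries 2114 genes were called, and 930 of 12693 with DESeq2. Of these 8 members 1 was called there, 3 with upper-quartile factors, 2 with no low-count filter and 1 to 2 without 1 library; of the other chaperone genes 15, against 23 with no low-count filter and 3 with DESeq2. By Trim28 level 1 member did not overlap, and 2 with upper-quartile factors.

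The labels do not say that replicate numbers pair the samples. Deviations from the labelled group means correlated at -0.318, -0.214 and -0.557 for replicates 1, 2 and 3, but Trim28 goes against these groups in both replicate 3 libraries, so the correlations do not settle it. The replicate block gave 0 calls by label and 2359 in the 4 libraries, with 0 and 1 of the 8 members. The call of Hspa8 in the 4 libraries changed under no alternative run there. Among the other named chaperones 42 of 216 values in the 4 libraries were no longer called and 6 were newly called.

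Signs turned only for uncalled values (log2). By label, Hspa5 ranged from -0.10 to 0.00 and Hsph1 from -0.16 to 0.06 without 1 library, and Hsph1 was 0.00 without both doubted ones. Ahsa2 ranged from -0.03 to 0.18 and Dnajb6 from -0.04 to 0.29 without 1 library. With the Trim28 covariate Ahsa2 was -0.05, Dnajb6 -0.02 and Dnajc15 -0.05, and Hspb6 was 0.05 without both doubted libraries. In the 4 libraries Hsph1 was -0.03 with upper-quartile factors and -0.00 with DESeq2 and with limma-voom. Without 1 of those libraries Hsph1 ranged from -0.10 to 0.09, Dnajb1 from -0.17 to 0.01 and Hspb6 from -0.31 to 0.53. A group of 1 library was there assumed to vary like the other. The cause of these shifts was not tested. Depth limits Hspa1a and Hspa1b, whose counts were at most 14 and 139 in a library.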

Other observations

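Other genes whose level in the authors' deposited table lay far above the mean deposited count were looked up after the ratio of Hspa8 was seen. Gapdh had a ratio of 59.5, Ppia of 31.0 and Eef1a1 of 4.43, taking the authors' deposited table over the counts. Among chaperone genes Dnaja1, a J-domain partner of HSP70, had 4.53, Ptges3 4.46 and Hspe1, the partner of HSP60, 3.25. Over 8958 genes 381 (4.25%) were above 2 and 221 (2.47%) above 3.

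Pseudogene copies of both HSP90 genes had counts of their own. Gm6368, a processed pseudogene that aligns to Hsp90ab1 over 2177 bases at up to 91.0% identity, had 1008, 965 and 998 counts in the libraries labelled deficient and 977, 1001 and 1025 counts in those labelled sufficient. Gm5844, a processed pseudogene of Hsp90aa1, had 53, 53 and 70 counts in the deficient group and 76, 90 and 58 counts in the sufficient group. These genes were named after their values were seen.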
